A study of Mus musculus with 4 samples.

Results

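The genes described here are 9 that write, maintain or remove DNA methylation in the mouse: the DNA methyltransferases Dnmt1, Dnmt3a and Dnmt3b, their cofactors Dnmt3l and Uhrf1, the dioxygenases Tet1, Tet2 and Tet3, and the glycosylase Tdg. The list was set by gene name, with no threshold on a level, by a choice made when earlier results of these data were known. All 9 were found by Ensembl identifier among the 37620 genes of the RNA‐seq count tables and had at least 1 CPM in at least 1 sample. Levels are given in CPM, the count of read pairs scaled for library size and composition. The 4 samples, 1 per condition, were R1 mouse embryonic stem cells (mESCs) in 3 media and trophoblast stem cells (TSCs) of the F4 line. The mESCs were kept for 2 days in serum‐containing medium without feeders. In 2i−L, GSK3 was inhibited with 3 µM CHIR99021 and MEK with 1 µM PD0325901, and LIF was left out. For 2iJ, 2 µM of a JAK inhibitor was added to these, and for 2iJ+B−A also 10 ng/ml BMP4 together with 10 µM of an inhibitor of ALK5. All mESC samples therefore shared CHIR99021 and PD0325901, and BMP4 and the ALK5 inhibitor were added together, so that their separate effects cannot be told apart. The TSCs, also labelled day 2, differ from the mESCs in line, medium and cell type at once. No difference below has a replicate check, no p-value is given, and intervals cover counting error only. In bulk RNA, fewer cells with a transcript and less of it per cell cannot be told apart.

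Cytosine methylation at CpG dinucleotides is set de novo by Dnmt3a and Dnmt3b, helped by Dnmt3l, which resembles them but has no catalytic activity of its own. After replication, Uhrf1 binds the hemimethylated CpGs and brings in Dnmt1, which copies the pattern to the new strand. The TET enzymes oxidize methylcytosine in steps, and Tdg cuts out the more oxidized forms, so that repair restores cytosine. In mESCs, culture with 2i is known to go with low Dnmt3 expression and low genome methylation, and extraembryonic tissues are known for a less methylated genome than the embryo. No methylation was measured in these samples.

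The promoters of these genes differ in how many CpGs they hold themselves. The 250 bases before the start site are shown for 5 of the genes that differed more than 2‐fold between samples, with every CpG in capitals. Dnmt3b and the TETs have a single RefSeq start, and the first of 3 is given for Dnmt3l. The sequences are from RefSeq (GRCm38.p6), written 5′ to 3′ along the gene, and each was placed by an exact match to NCBIM37, the build to which the reads were mapped. Dnmt3b lies at chr2:153474935-153475184 and Dnmt3l at chr10:77504782-77505031, both on the plus strand. Tet1 lies at chr10:62350073-62350322, Tet2 at chr3:133207355-133207604 and Tet3 at chr6:83391673-83391922, all on the minus strand.
Dnmt3b: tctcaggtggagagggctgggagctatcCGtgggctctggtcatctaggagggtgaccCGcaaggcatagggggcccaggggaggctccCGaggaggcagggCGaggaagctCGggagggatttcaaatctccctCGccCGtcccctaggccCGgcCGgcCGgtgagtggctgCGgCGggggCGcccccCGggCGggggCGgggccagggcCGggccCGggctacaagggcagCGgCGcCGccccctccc
Dnmt3l: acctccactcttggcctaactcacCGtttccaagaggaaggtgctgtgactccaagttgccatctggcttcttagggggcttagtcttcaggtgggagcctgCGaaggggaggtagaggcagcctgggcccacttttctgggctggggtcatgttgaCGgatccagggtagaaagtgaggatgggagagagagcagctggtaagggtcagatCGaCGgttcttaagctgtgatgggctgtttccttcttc
Tet1: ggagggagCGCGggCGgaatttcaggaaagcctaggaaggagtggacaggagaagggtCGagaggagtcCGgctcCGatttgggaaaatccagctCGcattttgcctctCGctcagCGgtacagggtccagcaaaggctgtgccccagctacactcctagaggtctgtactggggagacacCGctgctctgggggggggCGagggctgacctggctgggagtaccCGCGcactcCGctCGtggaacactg
Tet2: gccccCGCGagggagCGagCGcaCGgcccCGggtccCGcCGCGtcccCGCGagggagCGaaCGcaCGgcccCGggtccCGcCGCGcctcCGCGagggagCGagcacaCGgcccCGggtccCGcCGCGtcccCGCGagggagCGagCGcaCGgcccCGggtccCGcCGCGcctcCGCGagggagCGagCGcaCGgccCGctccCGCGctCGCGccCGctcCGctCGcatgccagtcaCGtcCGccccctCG
Tet3: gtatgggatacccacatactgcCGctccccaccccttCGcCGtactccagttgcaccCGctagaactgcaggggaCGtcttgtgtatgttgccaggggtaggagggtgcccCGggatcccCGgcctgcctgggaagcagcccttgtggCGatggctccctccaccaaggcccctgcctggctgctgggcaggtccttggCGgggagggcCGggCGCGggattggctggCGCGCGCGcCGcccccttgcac
In windows of 300 bases that run 50 bases past the start, Tet2 had 57 CpGs, more than 99.8% of 32851 RefSeq windows, compared with a median of 7. Dnmt3b had 30 CpGs, Tet3 22 and Tet1 17. The 3 windows of Dnmt3l held only 6, 4 and 3 CpGs. The RefSeq start of Tet1 is 7310 bases from the nearest start in the NCBIM37 annotation, while those of the other 4 genes are within 1 base of one. Short letter patterns known for factors downstream of the signals used here were searched on both strands. The STAT pattern TTCNNNGAA was in 1 of the 3 Dnmt3l windows and in that of Tdg (8.3% of all windows), and the SMAD pattern GGCGCC was in those of Dnmt3b and Tdg, in 1 of 3 of Dnmt1 and in all 3 of Dnmt3a (11.9% of all windows). The TCF pattern CTTTGAN was in 1 of the 3 Dnmt1 windows (16% of all windows). The Dnmt3a windows at chr12:3806730-3807029 and chr12:3806910-3807209 overlap, so that they may share a match. GGCGCC itself holds a CpG, and its 11.9% was not taken over windows of like CpG number. The 3 patterns were counted independently of one another, and a match is a description of letters, not of binding.

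Library totals were alike, from 33913984 to 36964392 read pairs on genes, and 3 counts, the smallest signal taken as detectable, came to at most 0.0902 CPM. The labels were checked against markers. In the order 2i−L, 2iJ, 2iJ+B−A and TSC, 8 pluripotency markers summed to 3626, 3204, 2245 and 829 CPM, and 8 trophoblast stem cell markers to 188, 179, 365 and 1459 CPM. Tfap2c made up most of the latter sum in 2i−L, with 154 CPM. Not all 8 were higher in 2iJ+B−A than in 2iJ: Eomes was at 2.74 compared with 10.7 CPM and Tfap2c at 113 compared with 142 CPM. Elf5 was at 0.133 CPM there and at 298 CPM in TSCs. The 8 pluripotency markers did not all follow their sum either. Klf4 went from 32.2 CPM (2iJ) to 73.1 CPM (2iJ+B−A), past 2‐fold. Between TSCs and 2iJ, 5 of them were lower past 2‐fold, with Pou5f1 down to 1.34 CPM and Nanog to 2.65 CPM. Only Utf1 was higher past 2‐fold, with 174 CPM (TSC) and 66.1 CPM (2iJ), while Dppa4 hardly differed. The sum of 8 feeder fibroblast markers was at most 37.7 CPM in mESCs and 4.24 in TSCs, where 3 of the 8 were at 0. The largest sum of 6 giant cell and spongiotrophoblast markers was 50.7 CPM in 2iJ+B−A, from Gcm1 and Ascl2, while Prl3d1, Prl2c2 and Tpbpa had 0 counts in every mESC sample. Primitive endoderm markers summed to 37.3 CPM (2iJ+B−A) and 51.1 CPM (TSC), although Gata6, Sox17, Sox7 and Dab2 were higher in 2iJ+B−A. Mesoderm markers summed to at most 27.9 CPM, in TSCs, of which Kdr made up 22.2 CPM. The part of such cells in the levels below was not tested. Transcript isoforms of a gene share 1 count and could not be separated.

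**Figure D1:**
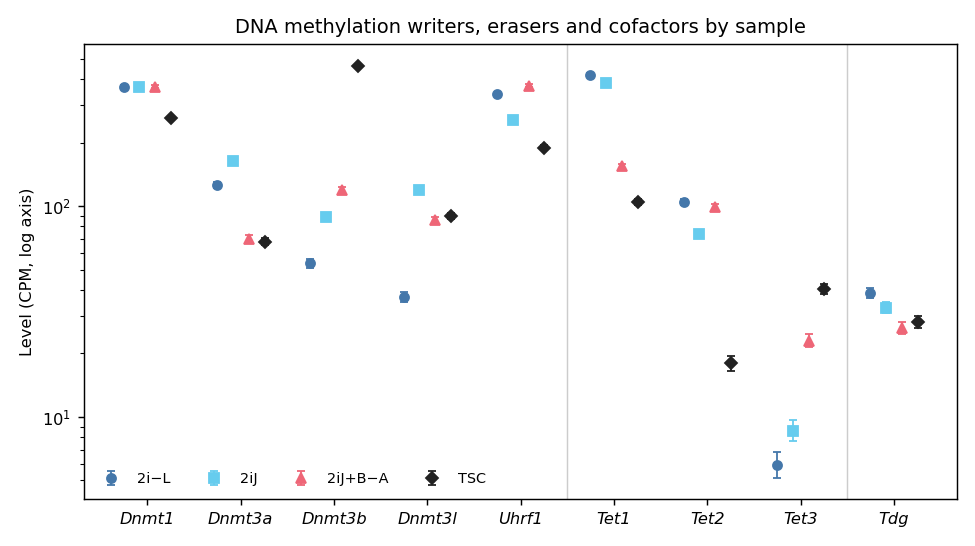
Level of each of the 9 genes in the 4 samples, in CPM on a log axis; bars are exact Poisson 95% intervals, for counting error only. Dnmt3b and Tet3 are highest in TSCs, Tet1 and Tet2 are lowest there, and Dnmt1 differs little among the 3 mESC samples.

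With the JAK inhibitor, the largest difference among the 9 genes was a higher level of Dnmt3l, the cofactor of de novo methylation. Dnmt3l (ENSMUSG00000000730) lies on chromosome 10 from 77504692 to 77526367 in NCBIM37. Its lowest level was 37.0 CPM, in 2i−L. The other samples had 119 CPM (2iJ), 85.6 CPM (2iJ+B−A) and 89.6 CPM (TSC), so that 2i−L stood alone as the low sample. The log2 ratio of 2iJ to 2i−L, taken after adding 0.5 CPM, was 1.67 (95% Clopper–Pearson interval 1.58 to 1.76), higher than for 99.9% of the 14263 genes compared. Dnmt3l was the only 1 of the 9 genes past 2‐fold in this comparison, in which 2.15% of all genes compared were past 2‐fold in either direction, 1.23% higher and 0.918% lower. At 1.5‐fold, 2 of the 9 passed, compared with 9.29% of all genes.

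Both de novo enzymes were also higher in 2iJ than in 2i−L, by less than 2‐fold. Dnmt3b (ENSMUSG00000027478, chromosome 2 from 153475186 to 153513466) was at 53.6 CPM in 2i−L and 88.7 in 2iJ, a log2 ratio of 0.72 (interval 0.64 to 0.81). Dnmt3a (ENSMUSG00000020661, chromosome 12 from 3806007 to 3914443) was at 126 and 163 CPM, a log2 ratio of 0.37 (interval 0.31 to 0.43). The 3 genes of the de novo machinery thus had positive ratios of very different size. The genes of maintenance did not share this direction. Dnmt1 (ENSMUSG00000004099, chromosome 9 from 20711650 to 20757317) had 367 CPM in 2i−L and 368 in 2iJ, and the interval of its log2 ratio, −0.03 to 0.04, held 0. Uhrf1 (ENSMUSG00000001228, chromosome 17 from 56442744 to 56462909) was lower in 2iJ, at 257 CPM compared with 338, a log2 ratio of −0.40.

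Of the erasers, the minor one was higher with the JAK inhibitor and both major ones were lower, none past 2‐fold. Tet2 (ENSMUSG00000040943, chromosome 3 from 133126643 to 133207354) was at 104 CPM in 2i−L and 73.9 in 2iJ, a log2 ratio of −0.49 (interval −0.57 to −0.42). The log2 ratio was −0.13 for Tet1 and 0.51 for Tet3, which had only 197 counts in 2i−L and 296 in 2iJ. Tdg had a log2 ratio of −0.22. The median over the 9 genes was 0.01, compared with 0.00 over all genes compared.

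**Figure D2:**
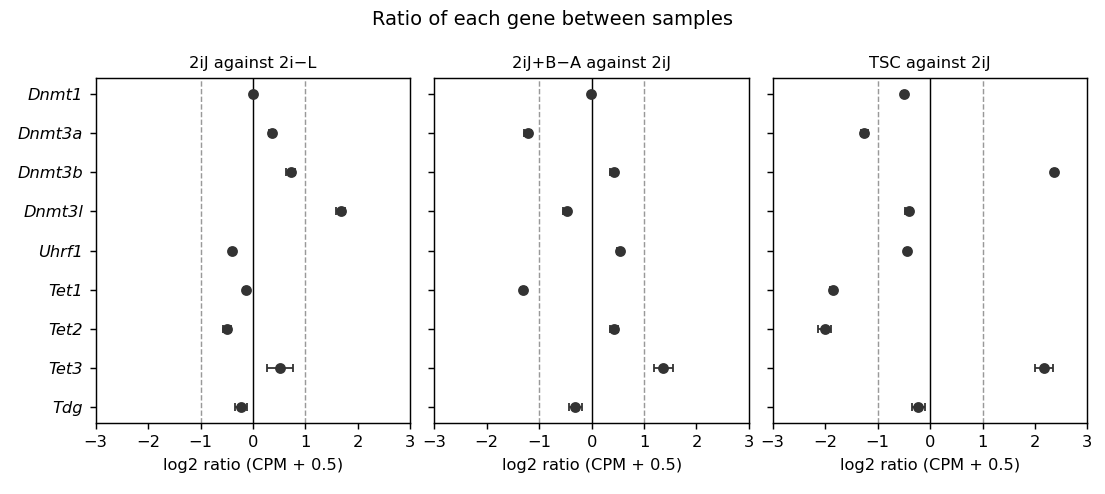
Log2 ratio of each gene between samples (CPM plus 0.5) with its 95% counting interval, for 2iJ against 2i−L, 2iJ+B−A against 2iJ and TSC against 2iJ; dashed lines mark 2‐fold. Dnmt3l is past 2‐fold in the first comparison, Dnmt3a, Tet1 and Tet3 in the second, and Dnmt3a, Dnmt3b, Tet1, Tet2 and Tet3 in the third. All 3 comparisons use the 2iJ sample.

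When BMP4 and the ALK5 inhibitor were added to 2iJ, the enzymes within each family differed in opposite directions. Tet1 and Dnmt3a were lower by more than 2‐fold, and Tet3 was higher by more than 2‐fold. These were 3 of the 9 genes, in a comparison in which 8.97% of all genes compared were past 2‐fold, 5.81% higher and 3.17% lower. The same 3 genes were past 1.5‐fold, as were 20.6% of all genes. Tet1 (ENSMUSG00000047146, chromosome 10 from 62267318 to 62361866), the main TET enzyme of mESCs, had its highest level, 418 CPM, in 2i−L, followed by 382 CPM (2iJ), 155 CPM (2iJ+B−A) and 105 CPM (TSC). The 2iJ+B−A sample therefore lay closer to TSCs than to either other mESC sample. Its log2 ratio of 2iJ+B−A over 2iJ was −1.30 (interval −1.34 to −1.25), lower than for all but 1.7% of genes.

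Dnmt3a was likewise low in both, at 69.95 CPM (2iJ+B−A) and 67.9 CPM (TSC), below the 2i−L and 2iJ samples. The log2 ratio of 2iJ+B−A over 2iJ was −1.21 (interval −1.28 to −1.15), and that of TSC to 2iJ+B−A was −0.04, with an interval from −0.12 to 0.04 that held 0. Dnmt3b went the other way, reaching 119 CPM, a log2 ratio to 2iJ of 0.43 (interval 0.36 to 0.49). Dnmt3l was lower in 2iJ+B−A than in 2iJ, with a log2 ratio of −0.47, and still above 2i−L.

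Tet3 (ENSMUSG00000034832, chromosome 6 from 83312367 to 83391672) was the least abundant of the 9 genes in every mESC sample, from 5.92 CPM in 2i−L through 8.62 CPM (2iJ) to 23.0 CPM (2iJ+B−A), and had 40.4 CPM in TSCs. The log2 ratio of 2iJ+B−A over 2iJ was 1.37 (interval 1.18 to 1.55), above 96.9% of genes. Tet2, at 99.4 CPM, was above 2iJ (log2 ratio 0.42, interval 0.35 to 0.50) and near the 104 CPM of 2i−L. The 3 TETs thus had 3 different patterns over the mESC media.

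Maintenance genes again differed from one another. Dnmt1 was level across the media, with 368 CPM in 2iJ+B−A and an interval of the log2 ratio to 2iJ, −0.04 to 0.03, that held 0. Without a normalization factor this ratio was 0.05. Uhrf1 was higher, at 372 CPM, with a log2 ratio to 2iJ of 0.53 (interval 0.49 to 0.57). A list of 18 genes of DNA replication and the cell cycle had 0 past 2‐fold between 2iJ and 2i−L or between 2iJ+B−A and 2iJ. Of all genes, 2.15% and 8.97% were, shares at which few of 18 would be. The median log2 ratio of the 18 was −0.14 in 2iJ and −0.12 in 2iJ+B−A against the sample before.

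Against 2i−L, with no JAK inhibitor, 4 of the 9 genes were past 2‐fold in 2iJ+B−A, in a comparison in which 12.5% of all genes compared were, 7.93% higher and 4.52% lower. At 1.5‐fold, 5 of the 9 passed, compared with 26.0% of all genes. Dnmt3b had a log2 ratio of 1.15, Dnmt3l of 1.20 and Tet3 of 1.87, and Tet1 of −1.43. Dnmt3a was not past 2‐fold here, with a log2 ratio of −0.85. This comparison shares its samples with both above.

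TSCs differed from 2iJ past 2‐fold in 5 of the 9 genes, with Dnmt3b and Tet3 higher and Dnmt3a, Tet1 and Tet2 lower. Of all genes compared, 37.0% were past 2‐fold, 19.4% higher and 17.6% lower, and 56.4% were past 1.5‐fold, as were 5 of the 9, so that many genes differ as much between these cell types. Dnmt3b was at 461 CPM in TSCs, the highest level of any of the 9 genes in any sample, compared with 53.6 to 119 CPM in mESCs. Its log2 ratio of TSC to 2iJ was 2.37 (interval 2.31 to 2.43), and against 2iJ+B−A it was 1.94 (interval 1.90 to 1.99).

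Tet2 was the gene on which 2iJ+B−A and TSCs differed most. It was at 18.0 CPM in TSCs and between 73.9 and 104 CPM in the mESC samples, with a log2 ratio to 2iJ of −2.01 (interval −2.14 to −1.89) and to 2iJ+B−A of −2.43 (interval −2.56 to −2.32). Tet2 and Dnmt3b were the 2 genes past 2‐fold between TSCs and 2iJ+B−A, a comparison in which 32.6% of all genes compared were, 16.4% higher and 16.2% lower. At 1.5‐fold, 4 of the 9 passed, compared with 52.2% of all genes. Tet1 had a log2 ratio of TSC to 2iJ of −1.86 and to 2iJ+B−A of −0.56. For Tet3, these were 2.17 and 0.80.

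Dnmt1 and Uhrf1 were both lower in TSCs, by less than 2‐fold. Dnmt1 was at 260 CPM, a log2 ratio to 2iJ of −0.50 (interval −0.54 to −0.46). Uhrf1 was at 189 CPM, with a log2 ratio of −0.44 to 2iJ and of −0.97 to 2iJ+B−A. The interval of the latter, −1.01 to −0.93, spans 2‐fold. Beside them, the 18 DNA replication genes had a median log2 ratio of TSC to 2iJ of −0.74. Of these, 7 (38.9%) were past 2‐fold, all lower, compared with 37.0% of all genes in either direction and 17.6% lower. Mcm3 (log2 ratio −1.89), a subunit of the replicative helicase, was among the 7. Others of the 18 were higher in TSCs, none past 2‐fold, among them Ccne1 and Cdc6. Mki67 was at 647 CPM compared with 354 in 2iJ, and Top2a at 1300 compared with 991 CPM. Dnmt3l did not set TSCs apart from 2iJ+B−A. The interval of its log2 ratio, −0.0044 to 0.14, held 0.

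Tdg (ENSMUSG00000034674, chromosome 10 from 82092573 to 82113544) varied least among the demethylation genes, between 26.5 CPM (2iJ+B−A) and 38.6 CPM (2i−L), and at 33.0 CPM (2iJ) and 28.2 CPM (TSC) in the other samples. Its counts are uncertain. Aligned to the genome, its longest coding transcript hit 3 further places over at least 83.8% of its length, at 96.0% to 99.3% identical bases, and only read pairs that map to 1 place were counted. One of these copies, Gm9855 on chromosome 10, itself had 34.1, 27.5, 24.4 and 26.4 CPM in the same order of samples. Summed with Gm9855, the log2 ratio of 2iJ+B−A over 2iJ was −0.25, compared with −0.31 for Tdg alone. Uhrf1 matched a pseudogene copy on the X chromosome over 71.8% of its transcript at 97.8% identical bases, and that copy had at most 7 counts. Dnmt3b matched 41.5% of its transcript to Gm14490, next to it on chromosome 2, at 89.0% identical bases.

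Compared per kb of exon, so that genes of different length can be set side by side, maintenance genes led in mESCs. Uhrf1 was first and Dnmt1 second in 2i−L, at 79.5 and 69.6 CPM per kb, and in 2iJ+B−A, while Dnmt1 led in 2iJ at 70.0 against 60.3 CPM per kb. In TSCs Dnmt3b came first at 90.2 CPM per kb, ahead of Dnmt1 at 49.5 and Uhrf1 at 44.5. Tet3 was last in the 3 mESC samples, at 0.534 CPM per kb in 2i−L, and Tet2 was last in TSCs, at 1.95 CPM per kb. Neighbours in this order whose counting intervals overlapped were Dnmt3l with Tet2, Tet2 with Dnmt3b, and Dnmt3a with Tdg in 2i−L, and Tet2 with Tet1 in 2iJ+B−A. With the longest transcript as the length, Uhrf1 came before Dnmt1 in every sample.

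**Figure D3:**
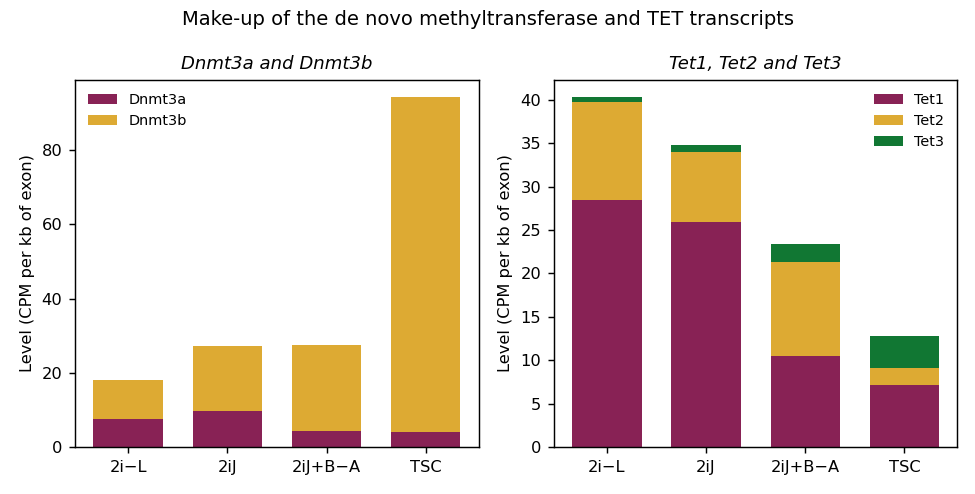
Levels of Dnmt3a and Dnmt3b (left) and of Tet1, Tet2 and Tet3 (right) in each sample, stacked, in CPM per kb of exon. The sum of Dnmt3a and Dnmt3b goes from 18.1 in 2i−L to 94.3 in TSCs, and the sum of the TETs from 40.3 to 12.7.

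Within families, the shares of the enzymes differed between samples on this scale of levels per kb. Of the summed Dnmt3a and Dnmt3b level, Dnmt3b made up 58.0% (2i−L), 64.0% (2iJ), 84.8% (2iJ+B−A) and 95.7% (TSC). The sum itself was nearly equal in 2iJ and 2iJ+B−A, at 27.2 and 27.6 CPM per kb, and was 94.3 CPM per kb in TSCs. With the longest transcript as the length, Dnmt3b made up 48.8% in 2i−L, so that Dnmt3a was then slightly ahead there. For the TETs, Tet1 held 70.5% of the sum in 2i−L and 74.7% in 2iJ, but 45.0% in 2iJ+B−A, where Tet2 held 46.1% and the counting intervals of both levels overlapped. In TSCs the shares were 56.0% for Tet1, 28.6% for Tet3 and 15.3% for Tet2. The sum of the 3 TETs was largest in 2i−L, at 40.3 CPM per kb, then 34.8 (2iJ), 23.4 (2iJ+B−A) and 12.7 (TSC).

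The genes with the most similar profile over the 4 samples were found by the Euclidean distance between centred log2 levels, among 10267 genes with at least 10 CPM in 1 sample. The nearest to Dnmt3a was Dppa2 (distance 0.14), a gene of pluripotent and germ cells, at 90.5, 117, 51.3 and 43.8 CPM in the order 2i−L, 2iJ, 2iJ+B−A and TSC. For Tet2 it was Klf3 (0.10), for Tet1 Ldlrad3 (0.09), for Tet3 Anxa3 (0.17), for Dnmt3b Lrrfip1 (0.13), for Uhrf1 Whamm (0.07), for Dnmt1 Ankhd1 (0.03) and for Tdg Zbtb8os (0.04). Dnmt3l had the most distant nearest gene, C77370 at 0.44, with Plk2 next at 0.45. With 4 points from single samples, this is a description only.

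Other genes of the pathway were followed in 5 lists of 70 genes in all: methyl‐CpG readers, base excision and deamination, partners of the writers and erasers, the methyl donor cycle, and enzymes of 2‐oxoglutarate, the cosubstrate of the TETs. Of these, 68 had at least 1 CPM in a sample. Between 2iJ and 2i−L, 0 of the 68 were past 2‐fold, compared with 2.15% of all genes. Between 2iJ+B−A and 2iJ, 3 (4.41%) were, compared with 8.97% of all genes, and all 3 were higher. With a pseudocount of 2 CPM these were still 3, and the share of all genes was 4.98%, close to the list's own. Bhmt, which passes a methyl group from betaine to homocysteine, went from 10.4 CPM (2iJ) to 75.0 CPM (2iJ+B−A), with a log2 ratio of 2.79 (interval 2.64 to 2.95), above 99.8% of genes, and had 1 count in TSCs. Gadd45g, a stress‐response gene linked to active demethylation, had a log2 ratio of 1.86 and was at 22.5 CPM in 2iJ+B−A and 20.7 in TSCs. Its relatives in the list were not past 2‐fold and differed in direction, with log2 ratios of −0.94 for Gadd45a and 0.51 for Gadd45b. Suv39h1, a histone H3 lysine methyltransferase of heterochromatin, had a log2 ratio of 1.04, with an interval from 0.94 to 1.15 that spans 2‐fold. The count of pathway genes past 2‐fold was 2 with unstranded counts. It was 4 without a normalization factor or with a pseudocount of 0.1 CPM. Against 2i−L, 7 of the 68 (10.3%) were past 2‐fold in 2iJ+B−A, 4 higher and 3 lower, compared with 12.5% of all genes.

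In TSCs, 26 of the 68 (38.2%) were past 2‐fold against 2iJ, 7 higher and 19 lower, close to the 37.0% of all genes, with a median log2 ratio of −0.27 compared with 0.00. The partner list had 8 lower and 0 higher of 20 (40%), compared with 17.6% of all genes lower and 19.4% higher. Of these 8, Prdm14, Dppa3 and Ctcfl were under 1 CPM in TSCs, so that their direction was set by the filter of 1 CPM. Prdm14, a repressor of the Dnmt3 genes in mESCs, was at 58.7 CPM (2i−L), 42.1 CPM (2iJ) and 27.3 CPM (2iJ+B−A) and had 0 counts in TSCs, at least 493‐fold lower than in 2iJ when set against 3 counts. Dppa3, which shields the maternal genome from demethylation, was at 84.5 CPM in 2iJ and 0.370 in TSCs. Hells, a chromatin remodeller needed for normal methylation, had a log2 ratio of −2.04, and Trim28, a corepressor that guards imprints, of −1.77. Ctcfl, a germline relative of Ctcf, was at 2.21 CPM in 2iJ and 0.399 in TSCs.

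The repair list had 2 higher and 4 lower of 14 (42.9%) in TSCs against 2iJ, near the 37.0% of all genes. The uracil glycosylase Ung had a log2 ratio of −2.11, Parp1 of −1.88 and Apobec1 of −2.53, and the glycosylase Neil3 of 1.99. Neil2 was at 7.14 CPM in 2iJ and had 2 counts in TSCs, 0.0570 CPM. Of the 8 readers, Zbtb4 was higher, from 2.36 to 23.0 CPM, Mbd2 had a log2 ratio of 1.07 and Zbtb38 of −1.09. Mbd2 was already at 35.1 CPM in 2iJ+B−A. Among 14 genes of the donor cycle, Mat1a was at 3.99 CPM in TSCs and 0.117 in 2iJ, and Mtr had a log2 ratio of −1.08. Mat1a reached 1 CPM only in TSCs, so that its direction among the 7 higher pathway genes was set by that filter. Likewise, Neil2, Apobec1, Prdm14, Dppa3, Ctcfl and Bhmt were under 1 CPM in TSCs and passed the filter only through mESC samples. Their direction among the 19 lower pathway genes was therefore set by it too. Among 12 genes around 2‐oxoglutarate, Idh3a and D2hgdh had log2 ratios of 1.36 and 1.01, and Glud1 and Idh1 of −1.17 and −1.08.

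**Figure D4:**
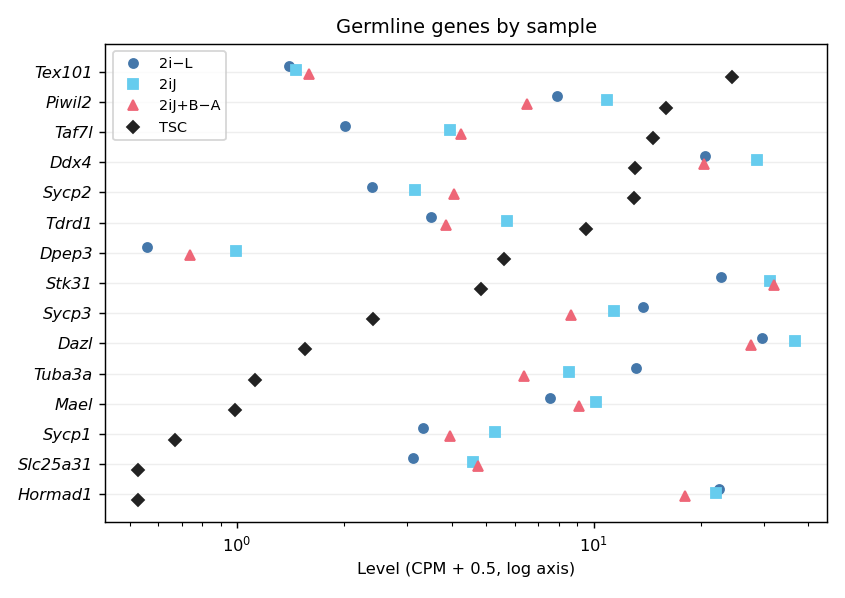
Levels of 15 germline genes in each sample, in CPM plus 0.5 on a log axis, ordered by their level in TSCs. Between TSCs and 2iJ, 4 genes are higher in TSCs and 9 lower past 2‐fold, with Hormad1 and Slc25a31 at 1 count each in TSCs. Dpep3, among the 4 higher, reached 1 CPM only in TSCs. Sycp1, Mael, Hormad1, Slc25a31 and Tuba3a, among the 9 lower, reached it only in mESC samples.

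Germline genes, many of which are silenced by promoter methylation in somatic cells, were a list of 16, of which 15 had at least 1 CPM in a sample. In mESCs, 0 of the 15 were past 2‐fold between 2iJ and 2i−L or between 2iJ+B−A and 2iJ. Of all genes, 2.15% and 8.97% were, shares at which few of 15 would be. Between 2iJ+B−A and 2i−L, 2 of the 15 (13.3%) were, Taf7l higher and Tuba3a lower, compared with 12.5% of all genes. The median log2 ratio of the 15 was 0.46 for 2iJ against 2i−L, compared with 0.00 over all genes, and −0.40 for 2iJ+B−A against 2iJ. Dazl, an RNA‐binding protein of germ cells, was between 27.0 and 36.1 CPM in the mESC samples. In TSCs it was at 1.05 CPM, a log2 ratio to 2iJ of −4.56. Against 2iJ, 13 of the 15 were past 2‐fold in TSCs, 9 lower and 4 higher, compared with 37.0% of all genes. Dpep3, among the 4 higher, reached 1 CPM only in TSCs, at 5.10 CPM, so that its direction was set by that filter. Of the 9 lower, Sycp1, Mael, Hormad1, Slc25a31 and Tuba3a were under 1 CPM in TSCs. Their direction was set by the filter in the same way. Asz1, with 22 counts in 2iJ and 0 in TSCs, stayed under 1 CPM in every sample and was left out. Hormad1, a meiotic chromosome axis gene, was at 21.6 CPM in 2iJ and had 1 count in TSCs, and Mael, a piRNA pathway gene, had a log2 ratio of −3.36. Tex101, a surface protein of germ cells, went the other way, from 0.961 CPM in 2iJ to 24.0 in TSCs. The list was thus split in TSCs, and methylation at these promoters was not measured.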

How the data were processed

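The RNA‐seq used here was done on poly(A) RNA from 4 samples, 1 per condition, with paired reads of 126 bases from directional libraries. The paper describes further RNA‐seq samples, with more than 1 of 2iJ and of 2iJ+B−A and with later days. Those were not used here. Per the labels and the paper, reads were trimmed with TrimGalore and cutadapt and mapped to NCBIM37 with STAR 2.4.2a. The authors deposited STAR's count of read pairs on each gene, whole numbers without normalization; the annotation release is not given in the sources used here. The count on the reverse strand was used, 29.1 to 32.1 times that on the opposite strand. Totals on genes were 33913984 to 36964392.

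Of 37620 identifiers, 37205 were in the NCBIM37 annotation, which gave symbols and lengths. Counts were scaled by edgeR 4.0.16 TMM factors (R 4.3.3), 0.969 to 1.035. Genes reaching 1 CPM in any sample (14263) were compared by log2 ratios with a pseudocount of 0.5 CPM, and called past 2‐fold. With 1 sample per condition no model or test was fitted. Ratios have 95% Clopper–Pearson intervals, from each sample's share of a gene's counts, and levels have exact Poisson intervals; PCR reads are not independent molecules, so both cover counting error only. The calculation was tested on simulated counts. Transcripts were aligned with minimap2 2.31. Other steps used Python 3.11.15.

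The genes and lists were chosen with earlier results of these data known. Named genes were the 9, the up to 5 list genes per list and comparison with the largest log2 ratio past 2‐fold, and the 3 nearest profiles, of which the first is given. Some list genes that this rule names are not reported here. Alternatives were unstranded counts, DESeq2 1.42.0 size factors or none, other filters, pseudocounts of 0.1 and 2 CPM, a 1.5‐fold threshold, thinned libraries and another gene length.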

Additional observations from a re-analysis of the deposited data

Results flagged for a closer look

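Counts on the strand opposite to each gene entered no comparison except the alternative with unstranded counts. In TSCs they stood above those of every other sample for 2 of the 9 genes, judged by 95% Poisson intervals. For how many of all genes this holds was not counted. Opposite‐strand counts on Dnmt3l were 81 in TSCs, compared with 14 in 2i−L, 12 in 2iJ and 12 in 2iJ+B−A, or 2.51% of its counts on both strands compared with 0.293% to 1.13%. Aire overlaps 67 exon bases of Dnmt3l on that strand, and its own counts were 544 in TSCs, 321 in 2i−L, 242 in 2iJ and 68 in 2iJ+B−A; its part in the signal was not tested. Opposite‐strand counts on Dnmt3b were 53 in TSCs, compared with 4, 15 and 21 in the mESC samples, a share of 0.327% of its counts compared with 0.224% to 0.490% there. Over the whole library the opposite strand held 3.32% of counts in TSCs and 3.02% to 3.12% in the mESC samples. The shares of both genes were below these.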

How the results depend on the processing

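Every alternative run except the 1.5‐fold threshold gave the same number of the 9 genes past 2‐fold in all 5 comparisons, and a number of other pathway genes within 1.5 times. The share of all genes past 2‐fold moved more: from 2.15% to between 0.624% and 4.57% for 2iJ against 2i−L, from 8.97% to between 4.98% and 12% for 2iJ+B−A against 2iJ, and from 37.0% to between 23.5% and 40% for TSC against 2iJ, over other pseudocounts and filters. At 1.5‐fold, 2 genes passed between 2iJ and 2i−L and 4 between TSCs and 2iJ+B−A. Of the 68 other pathway genes, 4 then passed for 2iJ against 2i−L, 10 for 2iJ+B−A against 2iJ and 12 for 2iJ+B−A against 2i−L. In TSCs, 44 passed against 2iJ and 37 against 2iJ+B−A. These larger counts come from the lower threshold itself. Of all genes, 9.29%, 20.6%, 26.0%, 56.4% and 52.2% passed 1.5‐fold in the same order of comparisons. Of 270 log2 ratios of single genes under the alternatives, 256 stayed within their counting interval, 14 moved outside it, nearly all without a normalization factor. The ratio of Dnmt1 between 2iJ+B−A and 2iJ, whose interval held 0, changed sign, from −0.0033 to 0.0481 without that factor and to 0.0052 with unstranded counts; no other ratio did. The longest transcript as the length put 4 genes at another rank in 2iJ and in TSCs, 2 in 2i−L and 0 in 2iJ+B−A. No paired analysis was possible because each condition has 1 sample here, and for the same reason no sample could be left out. Depth limits Tet3 in 2i−L most, with 197 counts; variation between cultures could not be measured.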

Other observations

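Gm14490, the locus beside Dnmt3b that its transcript partly matched, is annotated as a pseudogene in the NCBIM37 set and is known from later work as Dnmt3c, a methyltransferase of the male germline. Its counts were 2 (2i−L), 3 (2iJ), 6 (2iJ+B−A) and 1 (TSC), near the smallest detectable signal in all 4 samples. It was chosen after its values were seen.

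Aire, an autoimmune regulator gene that overlaps Dnmt3l head to head, was also named after its values were seen. Its levels were 9.65 CPM (2i−L), 7.05 CPM (2iJ), 1.81 CPM (2iJ+B−A) and 15.5 CPM (TSC), an order in which 2iJ+B−A was lowest, while Dnmt3l was lowest in 2i−L.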
